A study of Mus musculus with 86 samples.

Results

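The 3′ UTR of Kank2 was covered by 344 wild-type reporter oligos and 203 motif-mutated companions, 547 of the 11955 oligos in a pool that tiled 16 mouse 3′ UTRs. Its members were all oligos whose name carries the symbol Kank2, and they were ordered by oligo number. Each oligo, here called a tile, is 260 nt long and starts 6 nt after the tile before it, so neighbouring tiles share 254 bases and are not independent measurements. All 547 were tested in the reporter assay, while fewer had enough reads for the tests of binding and of label loss.

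The study measured whether loss of the RNA-binding protein TDP-43 changes where mRNAs sit in neuronal cells. CAD and N2A cells, mouse lines of catecholaminergic and neuroblastoma origin that grow neurites, carried a deletion in both endogenous copies of the TDP-43 gene and lived on a single-copy HA-tagged TDP-43 transgene under a doxycycline-off promoter (TetOff TDP-43). Wild-type cultures received no doxycycline and knockout cultures received it, so the deletion and the transgene were shared by both groups. For the CAD and N2A RNA-seq and the reporter assay, the sample labels give 48 h at 2 µg/mL. Dose and time were not recorded here for the knockout libraries of the label-loss assay. In the paper's reporter protocol, doxycycline was added before the cells were plated on membranes. Neurites that grew through a porous membrane were separated from the cell bodies (soma), and each line was selected from single-cell clones.

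The massively parallel reporter assay (MPRA) placed the pool in the 3′ UTR of a transfected GFP reporter in CAD cells, with 4 cultures per genotype and both fractions of each. RNA Bind-n-seq (RBNS) counted the same pool after incubation with recombinant TDP-43 at 0 nM, 5 nM, 50 nM or 500 nM, with 1 library at 0 nM, 1 of the input and 2 at each other concentration. SLAM-seq labelled RNA with 4-thiouridine (4SU) for 24 h and read T-to-C conversions before and after a 12 h chase, with 3 libraries per genotype and time, except 2 for wild-type cells at 0 h, and 3 libraries without 4SU. RNA-seq of soma and neurites covered CAD cells, N2A cells and CAD cells that expressed a WT TDP-43 or Q331K TDP-43 transgene, with 3 cultures per group. The labels call these last lines overexpression lines. They carried 1 inducible transgene copy (7 days of induction) in CAD cells that kept their own TDP-43 gene, and the design relied on TDP-43 autoregulation to lower expression from that gene.

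KANK2 is a scaffold with a KN motif and ankyrin repeats that binds talin at focal adhesions and connects them to the cortical complex that captures microtubule ends, together with liprins, KIF21A, ELKS and CLASP proteins. TDP-43 binds UG-rich RNA, and its loss from the nucleus and accumulation in the cytoplasm mark neurons in amyotrophic lateral sclerosis. The pool tested the TDP-43 motifs UGUGU (replaced with ACACA in the companions), GUGUG (replaced with CACAC) and GUAUG (replaced with CAUAC).

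The tiled region could be placed from the mutated positions in the oligo names, which fitted 1 offset only. On GRCm38 it ran on the minus strand of chromosome 9 from 21769004, the first base of the last exon of the 12-exon transcript Kank2-201 (ENSMUST00000034717), to 21766687. The stop codon begins at tiled base 52, and the last 97 of the 2318 bases lie past the annotated transcript end at 21766784. The study's motifs occurred at 6 sites in the 3′ UTR, which are printed as RNA, 5′ to 3′, from the GRCm38 transcript because the mutated companions differ from the wild-type tiles at these letters. Capitals mark the motif letters.
site 1 (chr9:21768693-21768719): caacgccuuggGUGUGgguuucuugua
site 2 (chr9:21768412-21768438): caccuccagacUGUGUcuucagggccu
site 3 (chr9:21767833-21767859): guuuuauguuUGUGUGUuuguuuuuaa
site 4 (chr9:21767731-21767757): ccaggaucucaGUGUGguucguggggg
site 5 (chr9:21767261-21767287): uggacggaugaGUGUGgggugggugga
site 6 (chr9:21767174-21767200): ucuuugcacguGUAUGaaacagaaaac

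A second feature lay just 5′ of site 5. Of 17 copies of GAUGG in the tiled region, 13 stood in a cluster of 137 nt from tiled base 1580 to 1716 (chr9:21767289-21767425), with starts at most 30 nt apart, and no other cluster held more than 1 copy. These letters were searched on the RNA strand after the reporter values had been seen. Tiles 244 to 264 (21 wild-type tiles) hold the whole cluster. The 30 bases at its 5′ end, and the 30 bases around the stretch that all tiles of the run described next have in common, are shown with GAUGG and, in the second, GAAUG in capitals.
cluster start (chr9:21767396-21767425): GAUGGacaGAUGGAUGGgugGAUGGAUGGa
common stretch (chr9:21767303-21767332): acagauagauGAAUGGAUGGAUGGacaggu

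Up to 15 copies of GAUGG fell within 1 tile. None of 109483 windows of 260 nt, laid end to end along the longest annotated 3′ UTRs of 17166 mouse genes, held as many. A window can split a cluster that an overlapping tile holds whole, so this does not show that no other UTR holds as many. Of the windows, 23.3% held at least 1 copy of GAUGG, 24.5% held GAAUG and 57.2% held a motif of the study. Of the 327 wild-type Kank2 tiles inside the transcript, 41.3% held GAUGG, 27.5% held GAAUG and 62.1% held a motif. These tiles overlap, so the same copy is counted in many of them, and their shares cannot be compared directly with those of the windows.

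Localization was read as a ratio (LR), log2 of neurite CPM over soma CPM (the UMI count scaled to the size of the library), and the LR change is knockout LR less wild-type LR. On loss of TDP-43, 45 wild-type Kank2 tiles rose in LR and 0 fell (edgeR's quasi-likelihood test, FDR of 0.01, DESeq2 giving the same 45 and 0), against 5.15% of 11918 oligos of the pool that rose and 0.277% that fell. The 45 tiles were tiles 239 to 282 without a gap, and tile 284. The LRs of the 4 knockout cultures lay above those of the 4 wild-type cultures in all 45. Outside tiles 221 to 286, which hold at least part of the GAUGG cluster, the change ran from -0.85 to 0.63 and no wild-type tile passed the test.

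Tile 263, which holds the whole cluster, site 5 and site 6, had the largest change. In soma it stood at 19.6, 14.7, 14.5 and 13.6 CPM in the wild-type cultures and at 38.4, 41.2, 40.1 and 49.3 CPM in the knockout cultures. In neurites it stood at 27.5, 17.4, 20.9 and 19.8 CPM in wild-type cultures and at 519, 455, 649 and 647 CPM in knockout cultures. The genotypes did not overlap in either fraction. The log2 change was 1.43 (SE 0.15, adjusted p = 1.8e-08 in edgeR's test) in soma and 4.71 (SE 0.12, adjusted p = 4.9e-21) in neurites.

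The LR of tile 263 was 0.48, 0.23, 0.52 and 0.54 in the wild-type cultures and 3.75, 3.46, 4.01 and 3.71 in the knockout cultures, a change of 3.28 (SE 0.20, adjusted p = 1.3e-12 in edgeR's test). In these reporters the LR rise thus held a rise in both fractions, with the larger one in neurites.

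Along the UTR the LR change climbed to a plateau and fell again. Just outside the run, tile 238 changed by 0.39 (adjusted p = 0.020) and did not pass the test. Tile 239, the first of the run, had LRs of 1.23, 0.81, 0.69 and 0.59 in wild-type cultures and of 1.33, 1.30, 1.65 and 1.29 in knockout cultures, a change of 0.55 (SE 0.12, adjusted p = 0.0017 in edgeR's test). Tile 246 had reached 1.60, tile 248 2.17 and tile 252 2.76.

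From tile 252 to tile 269, 18 tiles in a row lay between 2.64 and 3.28. The change then dropped to 2.41 at tile 270, 1.58 at tile 273, 0.96 at tile 278 and 0.40 at tile 280. Tile 282, the last of the run, had LRs of 0.19, 0.28, 0.40 and 0.26 in wild-type cultures and of 0.69, 0.55, 0.72 and 0.60 in knockout cultures, a change of 0.36 (SE 0.07, adjusted p = 0.00046 in edgeR's test). Tile 283 changed by 0.11 and missed the threshold, tile 284 changed by 0.28 and passed it, and tile 288 changed by -0.0015.

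The run is described here by how much of the cluster a tile holds. The 21 tiles with the whole cluster all rose, with a median LR change of 2.75 and a range from 1.13 to 3.28. Among the 22 tiles that had lost its 5′ end and kept a 3′ part (tiles 265 to 286), 19 rose, with a median of 1.37. Among the 23 tiles with only a 5′ part (tiles 221 to 243), 5 rose, with a median of 0.09, and the 278 tiles with none of it had a median of -0.02.

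All 44 tiles of the run share only tiled bases 1687 to 1688. Over the 66 wild-type tiles with any part of the cluster, the LR change went with the number of cluster bases (Pearson's r = 0.78, Spearman's rho = 0.78) and with the number of GAUGG copies (r = 0.78). It went as closely with the number of GAAUG copies (r = 0.81, rho = 0.86) and less with that of the study's motifs (r = 0.51, rho = 0.55). Over the 40 mutated tiles with any part of the cluster, r was 0.91 for cluster bases and 0.91 for GAUGG copies. For GAAUG copies it was lower there (r = 0.64, rho = 0.69), and for the motifs counted before their replacement it was -0.53 (rho = -0.48). These tiles overlap and come from the same libraries, so the values describe the profile only.

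Of the 45 tiles that rose, 8 (tiles 239 to 246) hold none of the study's motifs. In all, 37 of the 203 wild-type tiles with a motif and 8 of the 141 without one rose. Tiles around sites 1, 2, 3 and 4 gave no rise: 0 of the 43, 43, 42 and 42 wild-type tiles that hold each of them passed the test, and their median LR changes were -0.03, -0.04, 0.02 and 0.08.

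Levels of the whole-cluster tiles differed from the rest of the UTR when TDP-43 was present. Their median soma level was 14.0 to 17.9 CPM in the 4 wild-type cultures, against 70.1 to 72.8 CPM for the 278 tiles without the cluster, and their median neurite level was 18.4 to 28.6 CPM against 70.6 to 74.0 CPM. In knockout cultures the whole-cluster tiles had median levels of 38.4 to 42.4 CPM in soma and of 333, 280, 417 and 421 CPM in neurites. Tiles without the cluster were at 70.6 to 71.8 CPM and 69.5 to 72.2 CPM on this TMM scale. The neurite level of the whole-cluster tiles thus crossed that of the other tiles, and the soma level did not. Levels of different tiles also carry the share of each oligo in the transfected plasmid pool, which was not measured here.

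Tested by fraction, 45 wild-type tiles rose and 1 fell in soma, against 7.55% and 0.101% of the pool, and 49 rose and 1 fell in neurites, against 8.06% and 0.696%. Every whole-cluster tile was among those that rose in each fraction, with median log2 changes of 1.26 in soma and 4.06 in neurites. The tile that fell in soma was tile 228, and the one that fell in neurites was tile 86, both named after their values were seen. These changes are relative to the median oligo of the pool, which TMM scaling holds near 0. Scaled to library totals, the median LR change of all oligos was -0.51, 36 Kank2 wild-type tiles rose in LR and 275 fell.

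With TDP-43 present, 33 wild-type Kank2 tiles were already enriched in neurites over soma and 0 depleted, against 2.57% and 1.48% of the pool. All but tile 80 lay between tiles 239 and 286. Tile 239 had one of these enrichments, with a wild-type LR of 0.85 (SE 0.08, adjusted p = 3.3e-08 in edgeR's test), and tile 263, with 0.47 (SE 0.16, adjusted p = 0.10), did not pass. Among the 21 whole-cluster tiles 9 passed, with a median of 0.54.

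The companions show what remained without the study's motifs. Of 203 mutated Kank2 tiles, 31 rose in LR on loss of TDP-43 and 0 fell. Tiles 247 to 277 held 30 of them, among which were all 18 companions of whole-cluster tiles, and the other was tile 194, with a change of 0.26 (SE 0.06, adjusted p = 0.0058 in edgeR's test). Between tiles 252 and 269 the mutated tiles changed by 1.39 to 2.43.

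The mutated tile 263 stood in soma at 68.0, 68.2, 71.0 and 64.7 CPM in wild-type cultures and at 145, 165, 151 and 170 CPM in knockout cultures. In neurites it stood at 151, 105, 113 and 105 CPM and at 1107, 975, 1390 and 1398 CPM. Its LR was 1.15, 0.62, 0.67 and 0.70 in wild-type cultures and 2.93, 2.56, 3.20 and 3.04 in knockout cultures, without overlap. The LR change was 2.14 (SE 0.16, adjusted p = 3.4e-11 in edgeR's test), so most of the change of the wild-type tile was still measured after CACAC had replaced GUGUG at site 5 and CAUAC had replaced GUAUG at site 6.

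A pair effect was taken as the LR of a wild-type tile minus that of its companion, in knockout against wild-type cultures. For tile 263 this difference was -0.67, -0.38, -0.14 and -0.16 in wild-type cultures and 0.82, 0.90, 0.81 and 0.67 in knockout cultures, a pair effect of 1.14 (SE 0.12, adjusted p = 8.6e-05 in limma, exact two-sided permutation p = 0.0286, the smallest that 4 against 4 cultures can give). The genotypes did not overlap. In 28 Kank2 pairs the wild-type tile rose by more than its companion, and in 0 by less, against 6.57% and 0.0% of 4552 pairs of the pool. All 28 lay between tiles 248 and 279 and hold site 5. Of these, 9 were among the 14 pairs with site 5 alone and 19 among the 29 pairs in which site 5 and site 6 were replaced together. None of the 14 pairs with site 6 alone passed (median 0.04), nor did any pair at sites 1 to 4. No wild-type tile of these pairs rose in LR, so the pairs could not show the loss of a rise. Inside the run site 6 was replaced only together with site 5, so its part there was not measured alone.

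The pair effect took a different form in 2 stretches of the run, which also differ in the sites replaced. Companions of tiles 247 to 260 lost site 5 alone, while those of tiles 261 to 264 and of all 22 tiles of the second stretch lost site 5 and site 6. For the 18 pairs with the whole cluster, the wild-type tile had the lower mean LR in wild-type cells in all 18, by a median of -0.70, while in knockout cells the median difference was -5.2e-05 and 9 of 18 pairs were above 0. Removal of the motifs thus went with a higher LR in the presence of TDP-43, where the median LR of mutated tiles was 1.42, 0.95, 1.15 and 1.27 in the 4 wild-type cultures against 0.77, 0.25, 0.55 and 0.55 for wild-type tiles. The companions' median neurite level in wild-type cultures was 58.5, 41.2, 44.7 and 47.1 CPM against 28.6, 18.4, 21.3 and 20.9 CPM for the wild-type tiles, and their soma level 18.7 to 20.8 CPM against 14.0 to 17.9 CPM. The plasmid share of an oligo enters its CPM and cancels in its LR. All 18 mutated tiles with the whole cluster were enriched in neurites of wild-type cells (median 1.19), against 9 of 21 wild-type tiles.

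For the 22 pairs that had lost the 5′ end of the cluster, the median difference was 0.10 in wild-type cells and 0.89 in knockout cells, where all 22 wild-type tiles had the higher mean LR. Their mutated tiles had median LRs of 0.83, 0.76, 0.83 and 0.83 in the knockout cultures against 1.91, 1.72, 2.03 and 1.97 for the wild-type tiles. Here the companions were lower in the cells that lacked TDP-43. Over the 163 pairs without the cluster both medians lay between -0.01 and 0.02.

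Compared with the rest of the pool, 13.1% of wild-type Kank2 tiles rose in LR against 6.76% of the 7023 wild-type tiles of the other UTRs, and only the UTRs of Lrrc47 (30.8%) and Fam160b2 (26.2%) had a larger share. Mutated tiles rose in 3 of the 16 UTRs, with 31 of 203 (15.3%) in Kank2, 55 of 788 in Ksr2 and 8 of 271 in Wasf3, and in none of the other 13. Tiles of a UTR overlap, so no test was made of these shares.

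RBNS gave R, the share of reads of a tile in a library over its share in the input. Of 275 wild-type Kank2 tiles with enough reads, 26 had an R above 1 at 500 nM and 24 an R below 1 (edgeR's quasi-likelihood test, FDR of 0.01), against 6.78% and 14.5% of 11025 oligos, whose median log2 R was -0.55. The input had 1 library, so its spread was not measured, and the test assumes that it varies like the other libraries. The counts depend on the scaling: with TMM 50 were higher and 12 lower, against 13.7% and 9.98% of the oligos. Among mutated tiles, 15 were higher and 41 lower. Coverage was uneven. In the input 47 wild-type Kank2 tiles had no read and 86 fewer than 10, among them all 21 whole-cluster tiles (13 with none). Binding of the whole-cluster tiles was thus not measurable at this depth. Of the 22 tiles with a 3′ part of the cluster, whose LR changes reached 3.21, 21 were tested.

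The tiles with the highest mean R that share no base were tiles 236, 119 and 288. Tile 236 had 38 and 23 reads at 500 nM and 0 in the input, which gave an R of 48.1 and 47.7 with 0.5 added to each count, and it did not pass the test (adjusted p = 0.023 in edgeR's test). Tile 119 had 7 and 3 reads against 0, its R of 9.37 and 7.10 rests on these few, and it was left out of the test by the filter. Tile 288, just 3′ of the cluster with both site 5 and site 6, was well covered, with 382 input reads and 4637 and 2194 reads at 500 nM.

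Tile 288 showed a rise in R with concentration. Its R was 0.92 at 0 nM, 1.01 and 1.23 at 5 nM, 2.39 and 5.33 at 50 nM and 7.58 and 5.82 at 500 nM, with a log2 R at 500 nM of 2.75 (SE 0.48, adjusted p = 0.0021 in edgeR's test). Its mutated companion had an R of 3.26 and 3.07 at 500 nM and of 1.03 and 1.48 at 50 nM, and its log2 R at 500 nM still passed the test at 1.66 (SE 0.36, adjusted p = 0.0045 in edgeR's test), which it missed with the replicate block (adjusted p = 0.015). The binding of tile 288 stood beside an LR change of -0.0015 (SE 0.07, adjusted p = 0.998 in edgeR's test).

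Of the 26 wild-type tiles with an R above 1, 8 held site 3 and 15 held site 6, mostly with site 5. Tiles 227 to 229 held no motif of the study and only a 5′ part of the cluster. Among tested tiles with a 3′ part of the cluster, 11 of 21 were above 1, as were 3 of 19 with a 5′ part. Without the cluster 12 of 235 were. Of the 15 mutated tiles above 1, 12 held a 3′ part. The part of the cluster in binding was not tested. At site 3, the uninterrupted UGUGUGU, the median R at 500 nM over wild-type tiles with at least 50 input reads was 1.89 and 2.28 in the 2 libraries and that of their companions 0.25 and 0.36. Within the 17 pairs with site 3 alone, the wild-type tile exceeded its companion by a median of 3.49 and 3.11 on the log2 scale, and by at least 1.97 in each (mean of both libraries). No wild-type tile with site 3 changed its LR past the threshold.

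Tiles 169 to 193 hold both site 3 and site 4, and these 25 pairs differed by 2.86 and 2.31. In the 17 pairs with site 4 alone the median difference was 0.20 and 0.06, from -0.41 to 0.70, so the loss at the shared tiles was not seen with site 4 alone. At site 5 the median R was 6.51 and 5.31 and still 3.97 and 3.54 in the companions, a difference of 0.50 and 0.49 over the 17 pairs with at least 50 input reads for both oligos. All 17 (from tile 273 on) also hold site 6 and lost both, so site 5 alone was not measured. In the 14 pairs with site 6 alone the difference was 0.86 and 1.03. At sites 1 and 2 the median pair difference lay between -0.34 and 0.10, so no loss with mutation was measured there.

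Tiles with only site 6 showed where R fell at the 3′ side. Tile 290, which starts just past site 5, had an R of 3.48 and 3.30 and passed the test, tile 291 had 2.50 and 2.48, and tile 292 had 0.95 and 0.97. Their companions, in which site 6 was replaced and no motif of the study remained, stood at 3.38 and 2.85, 1.85 and 1.73, and 0.38 and 0.40. R thus dropped within 12 nt at the 5′ edge of these tiles in both forms, and from tile 292 to tile 303 10 of 12 companions passed as lower than the input. These tiles were named after their values were seen.

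At 50 nM the median difference over all 42 pairs with site 3 was 0.94 and 2.24, against 2.91 and 2.52 at 500 nM, and with site 6 alone it was 0.21 and 0.52. With sites 5 and 6 together it was 0.49 and 0.67, no lower than at 500 nM. At 5 nM the medians of all these sets of sites lay between -0.41 and 0.35, and at 0 nM between -0.20 and 0.27. Over the 130 Kank2 pairs with at least 50 input reads for both oligos, the pair difference at 500 nM differed between the 2 libraries by a median of 0.205.

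SLAM-seq gave the label kept by each tile through the chase, as the rate at which T positions were read as C. Tile 263 had rates of 1.86% and 1.97% in wild-type cells at 0 h and of 1.07%, 0.85% and 1.19% at 12 h. In knockout cells its rates were 2.04%, 2.13% and 2.07% at 0 h and 1.62%, 0.55% and 0.74% at 12 h, against 0.14% to 0.22% without 4SU. The first knockout library at 12 h stood apart over the whole pool: its median rate was 1.37%, against 0.43% and 0.48% in the other 2 and 1.16% to 1.32% in wild-type cells.

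With this library in the fit, 0 of 313 wild-type Kank2 tiles passed the test of a stability change (label loss in knockout against wild-type cells) in edgeR at an FDR of 0.05, as did 0.0% of 10576 oligos. At an unadjusted p under 0.05, 0 of these Kank2 tiles were higher and 5 lower, against 1 and 260 oligos of the pool, and limma also called 0. Without that library 294 were lower, with nearly the whole pool. The fit recovered 0 of 200 changes simulated with the medians of these libraries, so the count of 0 carries little weight. In knockout cells 293 wild-type and 174 mutated tiles lost label (97.2% of the pool), and in wild-type cells 0 wild-type tiles passed, with 0.00946% of the pool. The knockout count became 0 when replicate number 2 or 3 was left out, and the wild-type count became 305 without the library that stood apart.

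The tiles chosen for the largest changes were tile 164 at -1.47 (SE 0.67), tile 224 at -1.45 (SE 0.65) and tile 1 at -1.10 (SE 0.66) on the log2 odds scale, each with an adjusted p = 0.45 in edgeR's test. The median of the pool was -0.79 in the same fit. No mutated companion differed from its wild-type tile in the change of label (0 of 180 Kank2 pairs in limma, 0.0% of 3865 pairs).

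Read against the median oligo of each library and without the library that stood apart, a choice made after the data had been seen, 66 wild-type Kank2 tiles kept more label in knockout cells and 14 kept less (limma, FDR of 0.05), against 10.1% and 5.69% of the pool. Most of the tiles that kept more lay in 2 stretches, whose bounds were set after the values were seen. Of 39 tiles from 80 to 118, 36 kept more, with a median of 0.60, as did 17 of 18 mutated tiles there, and their median rates at 12 h in knockout cells were 0.75% and 0.78% against 0.45% and 0.51% for the tiles outside both stretches. Of 46 tiles from 239 to 284, 16 kept more, with a median of 0.48, as did 11 of 38 mutated tiles.

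Tiles 80 to 118 had no change in LR (0 of 39 higher, median -0.04), and 32 of them had no read in the RBNS input, so their binding was not measured. In the same fit, the label loss in wild-type cells differed from the median oligo in no Kank2 tile of either stretch, against 0.0567% of the pool that lost less and 0.0473% that lost more. In these whole-cell libraries, CPM is the read count scaled to library totals, unlike the TMM-scaled UMI levels of the reporter assay. Reads of the whole-cluster tiles in them gave medians of 47.1 and 45.5 CPM in wild-type and 52.7, 55.2 and 39.9 CPM in knockout cells at 0 h. At 12 h they were 41.6, 26.1 and 22.8 CPM and 57.4, 40.5 and 46.6 CPM, ranges that overlapped at both times, and no test was made of them.

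For tile 263 the label value was 0.52 (SE 0.17, adjusted p = 0.065 in limma) and for its companion 0.59 (SE 0.09, adjusted p = 0.0043). For tile 224, which holds only a 5′ part of the cluster, it was -0.82 (SE 0.13, adjusted p = 0.0056 in limma).

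The endogenous Kank2 mRNA (ENSMUSG00000032194, chr9:21766784-21798744) was measured beside its tiles. The knockout was checked first on Tardbp, which encodes TDP-43: in CAD soma it stood at 515 to 569 CPM in wild-type and at 90.4 to 98.3 CPM in knockout cultures, and in N2A soma at 546 to 601 CPM and at 160 to 179 CPM. Transcript Kank2-201 held 85.2% to 100% of the TPM of Kank2 in every library.

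In CAD neurites Kank2 rose from 19.2 ± 1.12 CPM (SD, n = 3) to 280 ± 30.9 CPM (SD, n = 3), and in soma from 14.2 ± 0.98 CPM (SD, n = 3) to 18.3 ± 0.32 CPM (SD, n = 3), without overlap in either fraction. The log2 change was 3.86 (SE 0.09, adjusted p = 2.8e-14 in edgeR's test) in neurites and 0.37 (SE 0.08, adjusted p = 0.0031) in soma, and the LR change was 3.50 (SE 0.12, adjusted p = 2.0e-11), where 0.225% of 17343 genes rose and 0.208% fell in LR. The study chose the UTRs of its pool by how localization of the RNAs changed without TDP-43. Some of these RNAs were more neurite-localized, some less, and some were not reliably affected. The CAD value of Kank2 is therefore a description. Beside it, the whole-cluster tiles changed by a median of 1.26 in soma and 2.75 in LR.

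In N2A cells, whose part in that choice is not given in the sources used here, Kank2 stood in neurites at 21.3 to 24.8 CPM in wild-type and 41.2 to 59.9 CPM in knockout cultures, and in soma at 15.2 to 16.1 CPM and 13.8 to 16.3 CPM. The neurite ranges did not overlap and the soma ranges did. The LR change was 1.26 (SE 0.18, adjusted p = 0.0049 in edgeR's test), where 0.0893% of 17912 genes rose and 0.0112% fell. It missed the threshold when any 1 of the replicate numbers was left out, with changes of 1.08 to 1.34. The CAD change exceeded the N2A change by 2.26 (SE 0.23, adjusted p = 6.2e-06 in edgeR's test over both lines, a test added after the values were seen, which 0.102% of genes passed in each direction).

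With the Q331K transgene, Kank2 was at 21.0 to 23.9 CPM in neurites and 13.8 to 16.8 CPM in soma, and with the WT transgene at 19.2 to 23.2 CPM and 14.4 to 18.3 CPM. The ranges overlapped in both fractions, and the LR change was 0.12 (SE 0.17, adjusted p = 0.999 in edgeR's test). In this experiment 0 of 13940 genes passed the test of LR change in either direction, and at this threshold a change of that size was not detectable.

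Wild-type Kank2 mRNA was on the neurite side in TMM-scaled CPM, with a wild-type LR of 0.44 (SE 0.09, adjusted p = 0.00049 in edgeR's test) in CAD cells, where 23.7% of genes lay on this side and 17.7% on the other. In N2A cells it was 0.54 (SE 0.13, adjusted p = 0.0015), where 32.5% and 26.6% did. In TPM, which also divides by transcript length and is not rescaled between fractions, it was lower in wild-type neurites (1.45, 2.17 and 2.34 TPM in CAD cells) than in soma (3.93, 5.60 and 5.36 TPM), so the side depends on the scale. The knockout difference did not: CAD neurites reached 28.5, 37.4 and 33.8 TPM and soma 4.99, 5.13 and 6.03 TPM.

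A list of 14 other genes of the KANK cortical complex was read beside Kank2. In CAD cells 12 were tested for LR change, of which 0 rose and 1, Ppfia1, the gene for the scaffold liprin-α1, fell by 1.02 on the log2 scale (SE 0.16, adjusted p = 0.0038 in edgeR's test). Neurite levels of Clasp1 and Clasp2, which encode proteins that stabilise microtubule plus ends, rose (0.41 and 0.48) and those of Ppfia1 and of Tln1, which encodes talin, fell, against 11.8% and 13.5% of genes. In soma Clasp1, Clasp2 and the talin gene Tln2 rose and none fell, against 11.2% and 11.6%.

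In N2A cells 0 of 11 tested genes of the list changed in LR. Clasp2, Phldb1, Ppfia1 and Tln2 rose in neurites and none fell, against 6.48% and 5.1% of genes, and Ppfibp1 and Tln2 rose in soma and none fell, against 10.9% and 5.15%. In the Q331K experiment 0 of 13 changed in LR, soma or neurites, as in 0.0% of genes. The direction of Ppfia1 in neurites differed between the lines, with -0.99 in CAD and 0.43 in N2A cells, a difference that was not tested.

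Libraries held 7923270 to 12208997 unique molecular identifiers (UMIs) in the MPRA, 1806779 to 9646262 reads in RBNS, 10782983 to 33024830 reads in SLAM-seq and 9783050 to 32895542 estimated counts in RNA-seq. Kank2 wild-type tiles had mean MPRA levels of 1.17 to 456 CPM (median 82.6), and the last 14, those after tile 330, were at 1.17 to 5.14 CPM, where a change is least precise (tile 344, LR change -0.85, SE 0.34). The neuronal genes Tubb3, Mapt, Snap25 and Stmn2 were detected in every RNA-seq library at 22.6 TPM or more, and Map2 and Syn1 at 5.23 and 8.12 TPM or more. Of the fibroblast markers, Dcn stood at 6.94 to 25.9 TPM in the Q331K experiment, while Col1a1 and Col1a2 stayed at or under 2.08 TPM in every library. The catecholaminergic markers Th and Ddc stayed at or under 6.61 TPM. Dbh, another such marker, stood at 2.66 to 52.3 TPM in CAD libraries (median 13.2) and at up to 2.26 TPM in N2A libraries. In CAD cells Dbh rose on loss of TDP-43 by 1.42 (SE 0.11, adjusted p = 5.7e-08 in edgeR's test) in soma and 1.36 (SE 0.11, adjusted p = 1.2e-07) in neurites, and its part in the Kank2 values was not tested. Labels do not say that same-group libraries came from independent cell lines, so p-values measure the spread between cultures of 1 clone or line.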

How the data were processed

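MPRA reads had been trimmed (cutadapt) and aligned end to end against the oligos (bowtie2) by the authors, who deposited, per oligo, the read count and the count of distinct 8-nt UMIs. Deposited RBNS values are read counts. The SLAM-seq count gives how often T was seen as T or as C (a modified PIGPEN, per the authors). The RNA-seq tables, made by the authors with salmon, hold estimated counts and TPM by transcript, and estimated counts were summed to genes here and rounded. For CAD and N2A RNA-seq and the MPRA, doxycycline is given as 2 µg/mL in the labels and differs in the methods. At most 0.129% of a library's estimated counts fell on transcripts without a gene. No per-sample column was left unassigned. Human libraries were not used here.

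Changes were tested over all oligos or genes with edgeR 4.0.16 in R 4.3.3 (glmQLFit, filterByExpr by group, TMM except library totals for RBNS, Benjamini-Hochberg adjustment, FDR of 0.01). SLAM-seq used modelMatrixMeth and an FDR of 0.05, for oligos that had 1000 or more T positions in all 11 labelled libraries. Pair effects used limma 3.58.1 on log2 CPM with a prior count of 2, and 0.5 was added to counts for R and rates. DESeq2 1.42.0, python 3.11.15, pandas 2.3.3, numpy 2.4.6 and scipy 1.17.1 served alternatives and summaries. All 547 Kank2 oligos passed the MPRA filter, 275 wild-type and 166 mutated ones the RBNS filter, and 313 and 180 the SLAM-seq minimum. The filter keeps an oligo that is high in 1 group only.

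The members, the gene list and the tests were chosen with earlier results of these data known. Tiles were named by rule: the largest LR change, the ends of the run, the 3 highest R and the 3 largest stability changes without shared bases, the first and last tile and their companions, and others named were chosen after their values were seen. Other choices made after seeing the data were the search for GAUGG and GAAUG, the SLAM-seq fits without 1 library, 5 nM as the RBNS numerator and the test of CAD against N2A cells.

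Same-numbered libraries were checked for shared deviations. Correlations ran from -0.07 to 0.18 in the MPRA, -0.26 to 0.15 in RBNS, -0.05 to 0.05 in SLAM-seq, -0.10 to 0.49 in CAD, -0.21 to 0.49 in N2A and -0.13 to 0.18 in the Q331K experiment. By a minimum of 0.1 for every number, they paired the soma libraries of both genotypes and the wild-type fractions in CAD (0.14 to 0.49 and 0.19 to 0.29) and N2A cells (0.12 to 0.49 and 0.10 to 0.13), but not all 4 groups of an LR change. Fits without a block are reported, and fits with it were added for these comparisons after the data had been seen. On simulated data, in which 200 features were drawn to change, the MPRA fit of LR recovered 195 of 200 changes of 1 log2 unit, the pair fit 181 of 200, and the RBNS fit 138 of 195 changes of 3 log2 units. The CAD fit recovered 151 of 195, the N2A fit 119 of 189 and the Q331K fit 164 of 199 changes of 2 log2 units. For SLAM-seq, edgeR recovered 0 of 200 changes of 1 log2 unit, limma on odds relative to the median oligo 175 of 200, and 170 of 200 without 1 library, with 22 unchanged oligos called. The SLAM-seq simulation added the same spread to every oligo and library, so its recovery rates may not hold for the real libraries.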

Additional observations from a re-analysis of the deposited data

Results flagged for a closer look

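Among 84 groups of 4 cultures read for the named tiles, 5 held 1 culture far from the other 3, and chance gives about 1 in 20 groups. Tile 119 in knockout soma had 27.7 CPM in culture 1 against 21.9 to 22.7 CPM. Tile 236 in wild-type soma had 78.6 CPM in culture 4 against 70.7 to 71.7 CPM. Tile 239 in wild-type neurites had 86.7 CPM in culture 1 against 63.8 to 65.9 CPM, and its LR in knockout culture 3 was 1.65 against 1.29 to 1.33. The mutated tile 263 had an LR of 1.15 in wild-type culture 1 against 0.62 to 0.70. Kank2 mRNA was set apart because its LR change differed between the cell lines, by 2.26 more in CAD than in N2A cells.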

How the results depend on the processing

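The count of 45 wild-type tiles that rose in LR stayed within 1.5 times under DESeq2, other filters and scalings, reads in place of UMIs, corrected UMIs, an FDR of 0.05 and the replicate block (45 tiles), and was 41 to 45 without 1 replicate number. Library totals raised the count of wild-type tiles that fell from 0 to 275. They reversed the LR change of tiles 1 (-0.46), 224 (-0.41), 236 (-0.42), 282 (-0.14) and mutated 282 (-0.45), and the neurite change of tiles 164 (-0.49), 224 (-0.57), 236 (-0.33), 282 (-0.039), mutated 282 (-0.60) and 288 (-0.54), through the shift of the pool's median.

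Of RBNS, the 26 wild-type tiles with an R above 1 became 46 at an FDR of 0.05, 50 against 0 nM, 64 against 5 nM, 50 with TMM, 55 with DESeq2, 15 with the replicate block (3.65% of the pool), 13 at 50 nM and 0 at 5 nM. The 41 mutated tiles below 1 became 20 against 0 nM, 26 against 5 nM, 25 with TMM, 20 with the replicate block and 0 at 5 nM. At 5 nM mutated tile 288 was at -0.13 and the median pair difference reversed from 0.46 to -0.013. Fits without replicate 1 or 2 had no residual degrees of freedom and were not run, so both libraries are given as values.

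SLAM-seq depends on the knockout library at 12 h that stood apart. Leaving out replicate numbers gave 0 to 283 wild-type tiles with lower stability, 0 to 271 with label loss in wild-type cells and 0 to 309 in knockout cells. Without that library alone, 294 were lower, 305 lost label in wild-type cells and 311 in knockout cells, and 2 pairs passed. On odds relative to the median oligo, 0 lost label in knockout cells. With both changes, 66 were higher and 14 lower in stability, and mutated tile 263 reversed to 0.59. In that fit 67 lost more label in knockout cells than the median oligo, against 20.5% of the pool, while 24.8% of the pool lost less. Wild-type Kank2 tiles that lost less were 38 of tiles 80 to 118, 16 of tiles 239 to 284 and 55 of the others. With the replicate block, 0 changed in stability, 0 lost label in wild-type cells and 285 in knockout cells.

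The N2A change of Kank2 was 1.08 to 1.34 without 1 replicate number (adjusted p = 0.013 to 0.39 in edgeR) and 1.26 with the replicate block (adjusted p = 0.0028), where the genes that rose over the whole table went from 16 to 37. In the CAD and N2A comparisons whose numbers pair the libraries, the block changed no call on Kank2, and on its list only the wild-type LR of Clasp2 in N2A cells (adjusted p = 0.014 with culture as the block). The wild-type LR of Kank2 with the WT transgene, at 0.43, missed the threshold with it (adjusted p = 0.010). In the MPRA it gave 46 tiles in soma, 51 in neurites and 34 with a wild-type LR (38 with culture as the block), and 21 pairs. Of named tiles, it brought tile 236 past the threshold in neurites (adjusted p = 0.0038) and tile 263 in wild-type LR with culture as the block (0.0033), and took away the RBNS calls of mutated tiles 164 and 288 (0.020 and 0.015). Of 982 recomputed values of named tiles, 891 kept their side of the threshold, 56 of these with another sign. Depth limits RBNS at the cluster and the MPRA at the tiles after tile 330.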
